A study of Homo sapiens with 9 samples.

Results

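The genes described here are 10 components of the Hippo pathway and direct targets of its effector YAP. The choice was made by name, with earlier results of these data known. It holds YAP1 and WWTR1 (which encodes TAZ), the transcription factors TEAD1 and TEAD4, and the kinases LATS1 and LATS2. Also in it are the target genes CTGF, CYR61, ANKRD1 and AMOTL2. These members are 10 of the 26364 genes listed in the count data, and all 10 had enough counts to be tested. RNA was sequenced from MDA-MB-231 cells, a mesenchymal triple-negative breast cancer line, that carried a non-targeting shRNA (shNT, the control) or an shRNA against GLO1, the enzyme that detoxifies methylglyoxal (MG). GLO1-depleted cells were represented by a pair of stable clones, shGLO1#1 and shGLO1#2, and control cells by 1 clone, with 3 replicate libraries of each. All 9 libraries came from the same parental line, and no condition had a second, separately derived line, so p-values compare these clones and cannot speak for others made in the same way.

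In the Hippo pathway, the kinases MST1 and MST2 activate LATS1 and LATS2, which phosphorylate YAP and TAZ and thereby keep them in the cytoplasm or mark them for degradation. When LATS activity is low, YAP and TAZ enter the nucleus, bind TEAD factors and switch on genes for matricellular proteins, cytoskeletal regulators and pathway inhibitors. YAP is thus regulated largely at the protein level, which mRNA counts do not measure. MG stress has been tied to YAP activity in breast cancer cells, which is the question that these genes address.

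GLO1 mRNA had a mean of 317 CPM (counts as a rate of the TMM-scaled library size) in control libraries, against 65.4 and 14.7 CPM in the first and second clone, and every library fitted its label. The libraries held 15314238 to 18495576 counts on genes. The mesenchymal markers VIM and CD44 were abundant, at 3158 to 4144 and 356 to 426 CPM by condition, while ESR1 summed to at most 13 counts and PGR to at most 9 counts in a condition. ERBB2 (67.9 to 79.8 CPM), KRT8 (917 to 1073 CPM) and KRT18 (640.4 to 837 CPM) were also measured, and EPCAM (10.7 to 14.6 CPM) and GATA3 (6.74 to 8.14 CPM) were low. Of 4 markers of other cell types, CDH5 summed to at most 3 counts and ALB to at most 5 counts in a condition. PTPRC, a leukocyte marker, was at 8.37 CPM in shNT cells, 1.21 in shGLO1#1 and 2.57 in shGLO1#2. PECAM1, an endothelial marker, was at 0.856, 2.71 and 3.21 CPM. Both moved with the condition at a low level, PTPRC down and PECAM1 up in the clones. A change in the number of cells of a type and a change in RNA per cell cannot be told apart in bulk RNA. The part of either gene in the results below was not tested.

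TEAD factors bind the short element GGAATG, which reads CATTCC on the other strand, so the RefSeq promoters of the members were searched for it on both strands, over the 250 bases before the start of the gene in GRCh38.p14. A promoter was given for 7 of the 10 members (YAP1, WWTR1, LATS1, LATS2, CTGF, ANKRD1 and AMOTL2), and not for TEAD1, TEAD4 or CYR61. The element was found in 3 of these 7 (42.9%), against 11.9% of all 35116 promoters of the same length. YAP1 held 1 copy, at -162 from the start. CTGF held 3 copies, a number reached by 0.0826% of all promoters, and ANKRD1 held 2, reached or passed by 0.94%. In the wider lists read below, the element lay in 6 of 16 YAP/TAZ targets with a promoter (37.5%), CTGF and ANKRD1 among them. It lay in 3 of 23 regulators (13%). The target NUAK2 and the regulators WTIP and WWC2 held 2 copies each, as ANKRD1 did. The CTGF and ANKRD1 windows are shown because, among the members, these targets carried the most copies and, as described below, moved in opposite directions. Capitals mark each copy, which starts at -169, -104 and -95 in CTGF (chr6:131951373-131951622, minus strand) and at -220 and -128 in ANKRD1 (chr10:90921088-90921337, minus strand).
CTGF: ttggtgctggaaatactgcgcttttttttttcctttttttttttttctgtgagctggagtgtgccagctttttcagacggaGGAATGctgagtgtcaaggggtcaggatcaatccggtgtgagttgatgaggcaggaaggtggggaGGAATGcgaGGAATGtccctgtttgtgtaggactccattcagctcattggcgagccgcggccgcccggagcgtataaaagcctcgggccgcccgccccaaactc
ANKRD1: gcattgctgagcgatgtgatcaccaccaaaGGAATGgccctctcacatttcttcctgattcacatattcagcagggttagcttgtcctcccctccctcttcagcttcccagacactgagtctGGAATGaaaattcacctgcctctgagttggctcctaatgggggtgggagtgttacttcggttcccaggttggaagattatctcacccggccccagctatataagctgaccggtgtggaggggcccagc
No copy lay in the windows of WWTR1, LATS1, LATS2 or AMOTL2, which says only that these letters were not there. The first promoter listed for each gene was used, and other start sites of the gene were not searched. A match is a description of the sequence and does not show binding in these cells.

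Per kilobase of exon, the level order in shNT cells ran from the target genes ANKRD1, CYR61 and CTGF down to the kinases. ANKRD1, a nuclear cofactor and sarcomere-associated ankyrin repeat protein, stood at 1185 CPM per kb, CYR61 at 435 and CTGF at 72.7. TEAD1 (49.8 ± 3.59 CPM per kb) and YAP1 (48.0 ± 0.933) did not differ beyond their SD. AMOTL2 (33.9), WWTR1 (27.0) and TEAD4 (12.7) followed, and LATS2 (8.16) and LATS1 (4.65) were lowest. The order changed in shGLO1#1, where WWTR1 (42.9 CPM per kb) stood above AMOTL2 (26.9) and near TEAD1 (44.9).

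**Figure D1:**
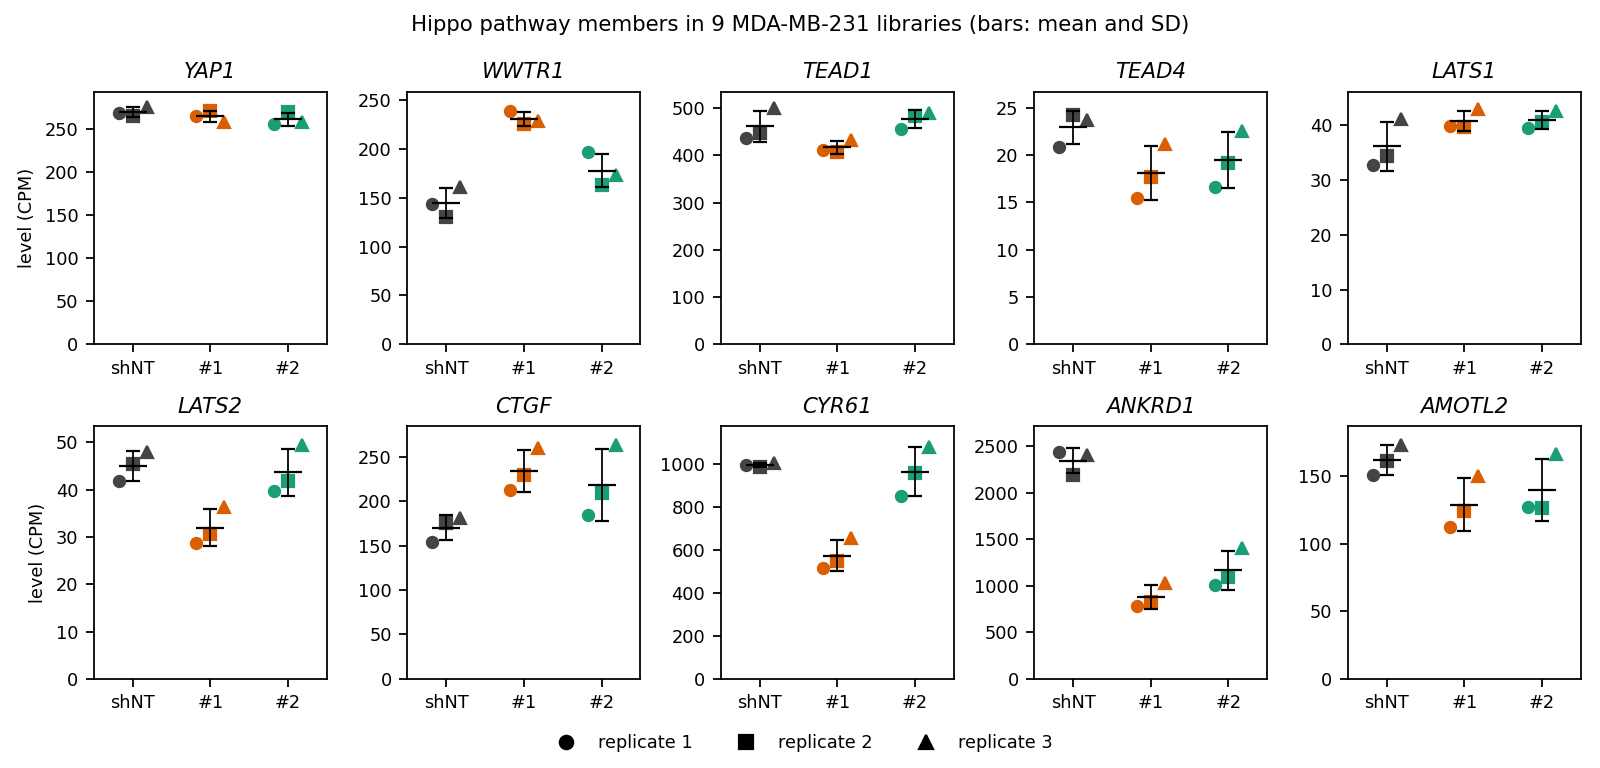
Level in CPM (vertical axes, from 0) of the 10 members in each library of shNT, shGLO1#1 (#1) and shGLO1#2 (#2), with symbols for the replicate number and bars for the mean and SD of 3 libraries. ANKRD1 was lower in every GLO1-depleted library (783 to 1403 CPM) than in any shNT library (2194 to 2437 CPM), and YAP1 lay between 256 and 276 CPM in all 9.

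YAP1 mRNA was level across the conditions, while WWTR1 mRNA rose in each GLO1-depleted clone. YAP1 was at 269, 265 and 276 CPM in shNT cells, 266, 271 and 258 in shGLO1#1 and 256, 270.5 and 258 in shGLO1#2. The ranges overlapped. As a log2 fold change this was -0.03 for shGLO1#1 over shNT (95% interval -0.13 to 0.08, adjusted p = 0.689, edgeR) and -0.05 for shGLO1#2 (-0.15 to 0.06, adjusted p = 0.485, edgeR). Under upper-quartile scaling the small negative values turned to 0.01 and 0.00.

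WWTR1, whose product TAZ shares the TEAD partners of YAP, was at 143, 130.3 and 161 CPM in shNT. It was at 238, 225 and 228 CPM in shGLO1#1 and 196, 163 and 173 in shGLO1#2. No library of either clone overlapped shNT, and the clones did not overlap each other. Relative to shNT, WWTR1 was 1.59-fold higher in shGLO1#1 (log2 fold change 0.67, SE 0.08, adjusted p = 1.66e-05, edgeR) and 1.23-fold higher in shGLO1#2 (0.29, SE 0.08, adjusted p = 0.0105, edgeR). The shGLO1#2 call ended without shNT replicate 2 (0.22, adjusted p = 0.0543, edgeR). Between the clones WWTR1 was lower in shGLO1#2 (log2 fold change -0.37, SE 0.08, adjusted p = 0.00164, edgeR). Set against YAP1 per kb within each library, WWTR1 made a ratio of 0.562 ± 0.0497 in shNT cells, 0.911 ± 0.0375 in shGLO1#1 and 0.714 ± 0.0872 in shGLO1#2 (SD, n = 3). WWTR1 overlaps the antisense gene WWTR1-AS1, which held 0 to 3 counts per library. An annotated gene also lies opposite YAP1, CTGF and LATS1, and since the library kit does not mark strand, reads from such a partner cannot be told apart.

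Of the TEAD factors, TEAD1 was the most abundant and TEAD4 the member with the fewest counts. TEAD1 was at 437, 448 and 499.6 CPM in shNT cells, 410.4, 408 and 432 in shGLO1#1 and 455, 484 and 489.9 in shGLO1#2. Every shGLO1#1 library lay below every library of the other conditions. Against shNT the log2 fold change in shGLO1#1 was -0.15 (95% interval -0.27 to -0.02), just outside the threshold (adjusted p = 0.0505, edgeR), and the value passed it in 6 of 16 alternative analyses. Among these, it passed without shNT replicate 1 (-0.19, adjusted p = 0.0294), shGLO1#1 replicate 3 (-0.18, adjusted p = 0.0491) or shGLO1#2 replicate 1 (-0.14, adjusted p = 0.0467, all edgeR). In shGLO1#2 it was 0.04 (-0.08 to 0.17, adjusted p = 0.586, edgeR). TEAD1 was 1.14-fold higher in shGLO1#2 than in shGLO1#1 (log2 fold change 0.19, SE 0.06, adjusted p = 0.0145, edgeR), a call that ended without shGLO1#1 replicate 2 (0.18, adjusted p = 0.0613) or shGLO1#2 replicate 3 (0.17, adjusted p = 0.0517).

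TEAD4 was at 20.9, 24.2 and 23.7 CPM in shNT cells, 15.5, 17.7 and 21.2 in shGLO1#1 and 16.6, 19.2 and 22.5 in shGLO1#2. The highest library of each clone reached into the shNT range. TEAD4 fell in shGLO1#1 (log2 fold change -0.34, SE 0.13, adjusted p = 0.0435, edgeR), a call that ended without shNT replicate 2 (-0.30, adjusted p = 0.121), shNT replicate 3 (-0.31, adjusted p = 0.112), shGLO1#1 replicate 1 (-0.24, adjusted p = 0.181), shGLO1#1 replicate 2 (-0.32, adjusted p = 0.114) or shGLO1#2 replicate 2 (-0.33, adjusted p = 0.0573), and under upper-quartile scaling (-0.31, adjusted p = 0.0596, all edgeR). In shGLO1#2 the log2 fold change was -0.24 (adjusted p = 0.156, edgeR), and with the replicate number as a block TEAD4 passed the test there (-0.24, adjusted p = 0.0248, edgeR). TEAD1 made up 54.9 ± 4.0% of the summed CPM per kb of TEAD1 to TEAD4 in shNT cells, 58.3 ± 0.833% in shGLO1#1 and 62.1 ± 1.41% in shGLO1#2 (SD, n = 3). By library, the shNT range of 51.1 to 59.1% held every shGLO1#1 library (57.3 to 59.0%), and shGLO1#2 lay above both (60.5 to 63.2%).

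Of the kinases that restrain YAP, LATS2 fell in shGLO1#1 and, in the main model, LATS1 passed the test in neither clone. LATS2, which is itself a YAP target and so part of a feedback loop, was at 41.7, 45.3 and 47.9 CPM in shNT and 28.8, 30.6 and 36.4 in shGLO1#1, with no overlap. The shGLO1#2 libraries, at 39.7, 41.8 and 49.3 CPM, spanned the shNT range. LATS2 was 1.41-fold lower in shGLO1#1 (log2 fold change -0.49, SE 0.10, adjusted p = 0.00139, edgeR). In shGLO1#2 it was -0.05 (95% interval -0.26 to 0.17, adjusted p = 0.746, edgeR), a value whose sign turned under upper-quartile scaling (0.00). The difference between the clones was itself past the threshold (0.45, SE 0.10, adjusted p = 0.00279, edgeR).

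LATS1 was at 32.8, 34.4 and 41.1 CPM in shNT cells, 39.8, 39.7 and 42.9 in shGLO1#1 and 39.4, 40.6 and 42.6 in shGLO1#2. The shNT replicate 3 library lay inside the range of the clones and the other shNT libraries below it. The log2 fold change was 0.17 in shGLO1#1 (adjusted p = 0.113, edgeR) and 0.18 in shGLO1#2 (adjusted p = 0.125, edgeR). Without shNT replicate 3 both passed the test, at 0.29 in shGLO1#1 (adjusted p = 0.00985, edgeR) and 0.29 in shGLO1#2 (adjusted p = 0.0110, edgeR). With the replicate number as a block, LATS1 also passed in shGLO1#1 (0.18, adjusted p = 0.0308, edgeR) and in shGLO1#2 (0.18, adjusted p = 0.0326, edgeR). Under upper-quartile scaling it passed in shGLO1#2 (0.23, adjusted p = 0.0469, edgeR). LATS2 to LATS1, as CPM per kb within a library, was 1.76 ± 0.110 in shNT cells, 1.10 ± 0.0876 in shGLO1#1 and 1.50 ± 0.115 in shGLO1#2 (SD, n = 3).

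Among the target genes, ANKRD1 fell in each clone, CTGF rose in each clone, and CYR61 and AMOTL2 fell in shGLO1#1. ANKRD1, a target commonly used to read out YAP, was at 2437, 2194 and 2405 CPM in shNT. In shGLO1#1 it was at 783, 828 and 1028 CPM and in shGLO1#2 at 1009, 1092 and 1403. No library of either clone came near the shNT libraries. ANKRD1 was 2.67-fold lower in shGLO1#1 (log2 fold change -1.41, SE 0.12, adjusted p = 5.93e-07, edgeR) and 2.01-fold lower in shGLO1#2 (-1.01, SE 0.11, adjusted p = 1.38e-05, edgeR). It stayed lower with an adjusted p under 0.05 in every one of 16 alternative analyses of each clone. In shGLO1#2 its value lay at the fold limit, ranging from -1.15 to -0.90, and fell inside that limit without shNT replicate 1 (-0.98), shNT replicate 3 (-0.98), shGLO1#2 replicate 1 (-0.90) or shGLO1#2 replicate 2 (-0.95). Between the clones ANKRD1 was higher in shGLO1#2 (0.41, SE 0.11, adjusted p = 0.00971, edgeR), with overlapping libraries, and this call ended without shGLO1#1 replicate 1 (0.33, adjusted p = 0.0517, edgeR).

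CTGF and CYR61 encode secreted matricellular proteins of the same family, CCN2 and CCN1, and are often read out together as YAP targets. CTGF was at 154, 175 and 181 CPM in shNT cells, 213, 229 and 260.0 in shGLO1#1 and 184, 209 and 263 in shGLO1#2. Every library of each clone lay above every shNT library, though shGLO1#2 replicate 1 did so narrowly. CTGF was 1.38-fold higher in shGLO1#1 (log2 fold change 0.46, SE 0.11, adjusted p = 0.00403, edgeR) and 1.28-fold higher in shGLO1#2 (0.36, SE 0.11, adjusted p = 0.0199, edgeR). The shGLO1#2 call ended without shNT replicate 1 (0.29, adjusted p = 0.0854) or shGLO1#2 replicate 3 (0.22, adjusted p = 0.0850, both edgeR). Between the clones the difference was -0.10 (95% interval -0.34 to 0.14, adjusted p = 0.487, edgeR), and without shGLO1#2 replicate 3 it passed the threshold, lower in shGLO1#2 (-0.25, adjusted p = 0.0423, edgeR).

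CYR61 was at 996, 986 and 1005 CPM in shNT and 518, 548 and 658 in shGLO1#1, which did not overlap. In shGLO1#2 it was at 855, 959 and 1083 CPM, around the shNT values and more scattered. CYR61 was 1.73-fold lower in shGLO1#1 (log2 fold change -0.79, SE 0.09, adjusted p = 9.62e-06, edgeR). In shGLO1#2 the value was -0.04 (95% interval -0.23 to 0.15, adjusted p = 0.738, edgeR), and 0.01 under upper-quartile scaling. The clones differed by 0.75 (SE 0.09, adjusted p = 1.57e-05, edgeR). In shGLO1#1, CTGF and CYR61 therefore went opposite ways, and the ratio of CTGF to CYR61 in CPM per kb was 0.167 ± 0.0140 in shNT cells, 0.400 ± 0.0119 in shGLO1#1 and 0.221 ± 0.0148 in shGLO1#2 (SD, n = 3), with no overlap between any conditions.

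AMOTL2, an angiomotin-family scaffold that binds and restrains YAP and is also its target, was at 151, 161 and 173 CPM in shNT cells, 112, 124 and 150.0 in shGLO1#1 and 127, 126 and 166 in shGLO1#2. The shGLO1#1 libraries lay below shNT by a narrow gap, and the shGLO1#2 libraries overlapped it. AMOTL2 was 1.26-fold lower in shGLO1#1 (log2 fold change -0.33, SE 0.11, adjusted p = 0.0274, edgeR). The call ended without shNT replicate 2 (-0.34, adjusted p = 0.0575), shNT replicate 3 (-0.28, adjusted p = 0.101), shGLO1#1 replicate 1 (-0.24, adjusted p = 0.130) or shGLO1#1 replicate 2 (-0.31, adjusted p = 0.0874, all edgeR). In shGLO1#2 it was -0.22 (adjusted p = 0.151, edgeR). There it passed the test with the replicate number as a block (-0.22, adjusted p = 0.00247, edgeR) and without shGLO1#2 replicate 3 (-0.35, adjusted p = 0.0155, edgeR). A ribosomal protein pseudogene, RPL39P5, overlaps AMOTL2 on the same strand.

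**Figure D2:**
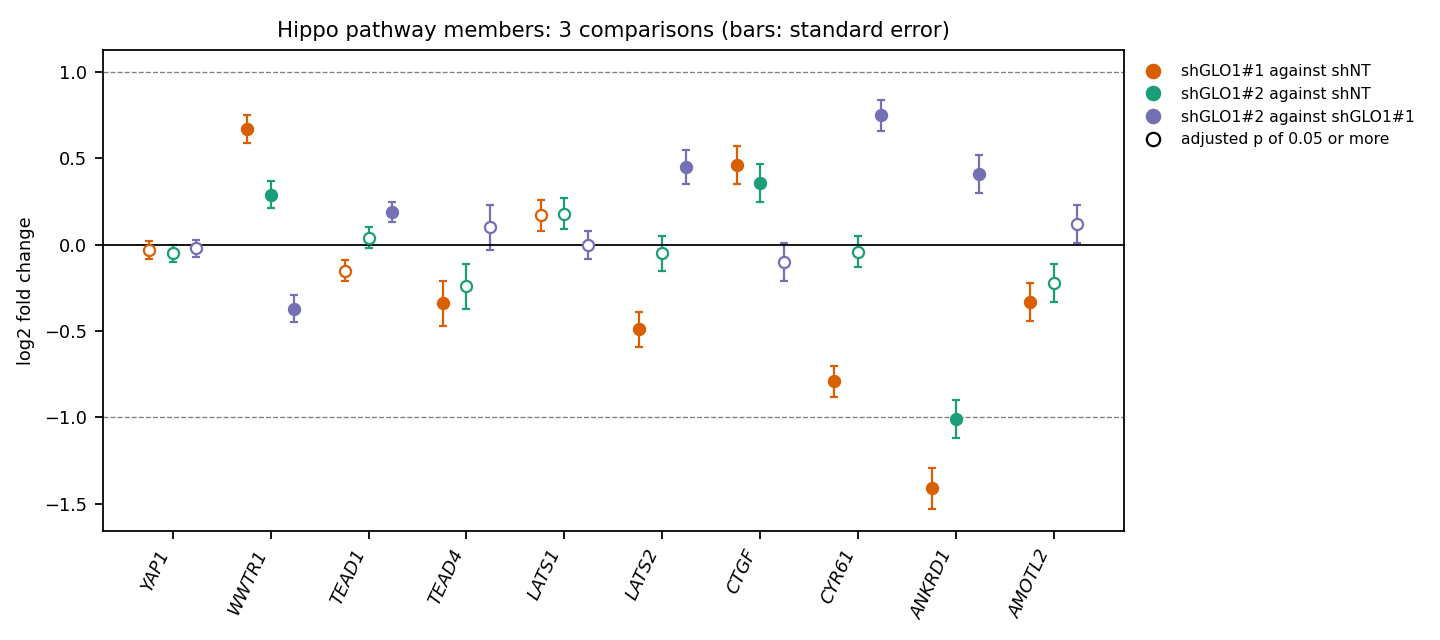
Log2 fold change (vertical axis) of each member in shGLO1#1 against shNT, shGLO1#2 against shNT and shGLO1#2 against shGLO1#1, with bars for the standard error, open symbols for an adjusted p of 0.05 or more and dashed lines at the fold limit of 1 on the log2 scale. ANKRD1 reaches -1.41 and -1.01 against shNT, and WWTR1 and CTGF are the members above 0 with filled symbols in both clones.

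Counted over the 10 members, 2 rose and 5 fell in shGLO1#1, beside 22.6% of all tested genes that rose and 23.1% that fell. In shGLO1#2, 2 rose and 1 fell, beside 18.3% and 19.8% of all genes. With the replicate number as a block 6 members changed there, but the share of all genes called with the block was not taken. Past the fold limit of 1 on the log2 scale lay 1 member in each clone, ANKRD1, lower both times. Of all genes, 5.98% were past it in the higher and 2.75% in the lower direction in shGLO1#1, and 5.09% and 2.59% in shGLO1#2. The median log2 fold change of the members was -0.24 in shGLO1#1 and -0.04 in shGLO1#2, beside 0.00 over all genes in each. Both comparisons used the same shNT libraries. WWTR1 and CTGF rose in both clones (9.32% of all genes did) and ANKRD1 fell in both (9.22%). TEAD4, LATS2, CYR61 and AMOTL2 changed in shGLO1#1 alone by this count, and for LATS2 and CYR61 the difference between the clones was also past the threshold. For TEAD4 (0.10, 95% interval -0.18 to 0.38, adjusted p = 0.563, edgeR) and AMOTL2 (0.12, -0.13 to 0.36, adjusted p = 0.424, edgeR) it was not.

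Set directly against shGLO1#1, shGLO1#2 held 4 members higher (TEAD1, LATS2, CYR61 and ANKRD1) and 1 lower (WWTR1), with none past the fold limit. Of all genes 22.8% were higher and 23.7% lower in this comparison, 3.33% and 3.75% past the limit. WWTR1, LATS2, CYR61 and ANKRD1 lay further from shNT in shGLO1#1, as did CCDC80, NUAK2 and MAP4K4 of the genes described below. NT5E (log2 fold change 0.50 in shGLO1#1 and 0.75 in shGLO1#2), DOCK5 (0.21 and 0.49) and WTIP (-0.84 and -1.52) lay further from it in shGLO1#2. GLO1 mRNA itself was 4.44-fold lower in shGLO1#2 than in shGLO1#1. Its depth of loss cannot be told apart from other differences between the clones, and its part was not tested.

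**Figure D3:**
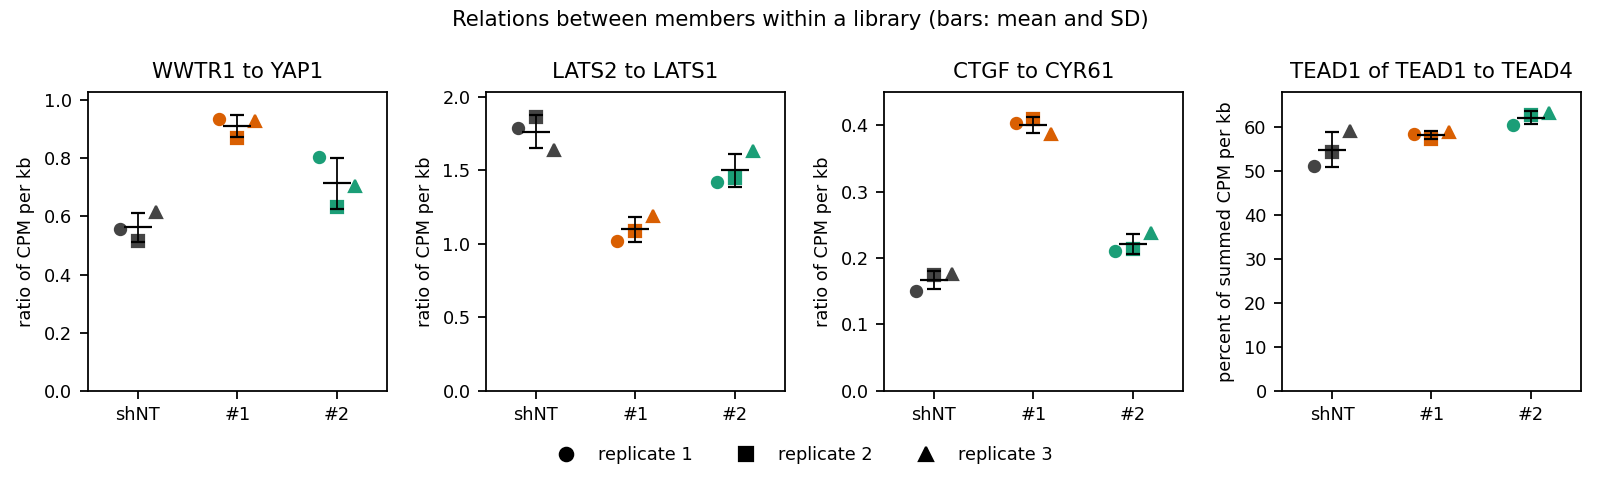
Ratios of CPM per kb between members within each library, and TEAD1 as a percent of the summed CPM per kb of TEAD1 to TEAD4 (vertical axes, from 0), with symbols for the replicate number and bars for the mean and SD of 3 libraries. CTGF to CYR61 is 0.387 to 0.410 in shGLO1#1 and at most 0.238 in the other conditions, and LATS2 to LATS1 is lowest in shGLO1#1.

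Members shared one feature across libraries that the conditions do not describe. The replicate 3 library was the highest of its condition in shNT, shGLO1#1 and shGLO1#2 alike for 6 of the 10 members (TEAD1, LATS1, LATS2, CTGF, CYR61 and AMOTL2, 60%), for 9 of 22 YAP/TAZ targets (40.9%) and for 1589 of 13704 tested genes (11.6%). The labels do not say what a replicate number stands for, and its part in the results was not tested beyond the fit with the number as a block.

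The genes nearest to ANKRD1 over the 9 libraries, by Euclidean distance of centred log2 CPM among 9575 genes with a mean of at least 10 CPM, were EXPH5 (distance 0.41) and PAPSS2 (0.45). EXPH5, an effector of the vesicle GTPase RAB27, was at 24.8 ± 0.340 CPM in shNT cells, 9.17 ± 0.258 in shGLO1#1 and 12.1 ± 1.29 in shGLO1#2 (SD, n = 3). PAPSS2, which makes the sulfate donor PAPS, was at 268 ± 9.99, 107 ± 3.91 and 137 ± 1.27 CPM. Both were chosen for this likeness, so their values are a description.

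A list of 22 YAP/TAZ target genes was read beside the members, of which LATS2, CTGF, CYR61, ANKRD1 and AMOTL2 are also members. In shGLO1#1, 6 rose and 8 fell, beside 22.6% and 23.1% of all tested genes. In shGLO1#2, 6 rose and 4 fell, beside 18.3% and 19.8%. The medians were -0.05 and 0.00 on the log2 scale, beside 0.00 over all genes in each comparison. Among the 17 targets that are not members the calls were 5 up and 4 down in shGLO1#1, then 5 up and 3 down in shGLO1#2. Between the clones 10 of the 22 were higher and 2 lower in shGLO1#2, beside 22.8% and 23.7% of all genes.

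F3, which encodes tissue factor, the initiator of blood clotting, was the other target that fell past the fold limit in both clones. It was at 1151, 1070.0 and 1182 CPM in shNT cells, 382, 489.9 and 571 in shGLO1#1 and 415, 534 and 603 in shGLO1#2. The clones overlapped each other far below shNT, with log2 fold changes of -1.24 for shGLO1#1 (SE 0.13, adjusted p = 7.32e-06, edgeR) and -1.13 in shGLO1#2 (SE 0.13, adjusted p = 1.95e-05, edgeR). NUAK2, an AMPK-related kinase that feeds back on LATS, was at 5.71, 4.89 and 5.70 CPM in shNT and 2.04, 2.94 and 2.91 in shGLO1#1 (log2 fold change -1.04, SE 0.20, adjusted p = 0.000738, edgeR). In shGLO1#2 it was at 5.36, 4.41 and 3.48 CPM (-0.30, adjusted p = 0.227, edgeR), and the clones differed by 0.74 (adjusted p = 0.00832, edgeR). CCDC80, a secreted matrix-binding protein, was at 12.5, 20.4 and 18.6 CPM in shNT cells, 32.3, 36.5 and 36.0 in shGLO1#1 and 12.4, 20.6 and 14.0 in shGLO1#2. It rose in shGLO1#1 (1.02, SE 0.18, adjusted p = 0.000344, edgeR), against -0.13 in shGLO1#2 (adjusted p = 0.626, edgeR), and the clones differed by -1.15 (adjusted p = 0.000133, edgeR). These genes kept their calls when a library was left out, but some came inside the fold limit. F3 did so in shGLO1#2 without shGLO1#2 replicate 1 (-0.99), NUAK2 without shNT replicate 3 (-1.0) or shGLO1#1 replicate 1 (-0.89), and CCDC80 without shNT replicate 1 (0.84), shGLO1#1 replicate 2 (0.99) or shGLO1#1 replicate 3 (1.00).

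Named after their values were seen, IGFBP3, NT5E and DOCK5 were the other targets that rose in both clones. IGFBP3, which binds insulin-like growth factors, had log2 fold changes of 0.95 in shGLO1#1 and 0.67 in shGLO1#2. NT5E, the ectonucleotidase CD73, had 0.50 and 0.75, and DOCK5, an exchange factor for Rac, had 0.21 and 0.49. The DOCK5 call in shGLO1#1 ended without shNT replicate 1 (0.18, adjusted p = 0.0850), shNT replicate 2 (0.21, adjusted p = 0.0549) or shGLO1#1 replicate 3 (0.14, adjusted p = 0.117, all edgeR).

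**Figure D4:**
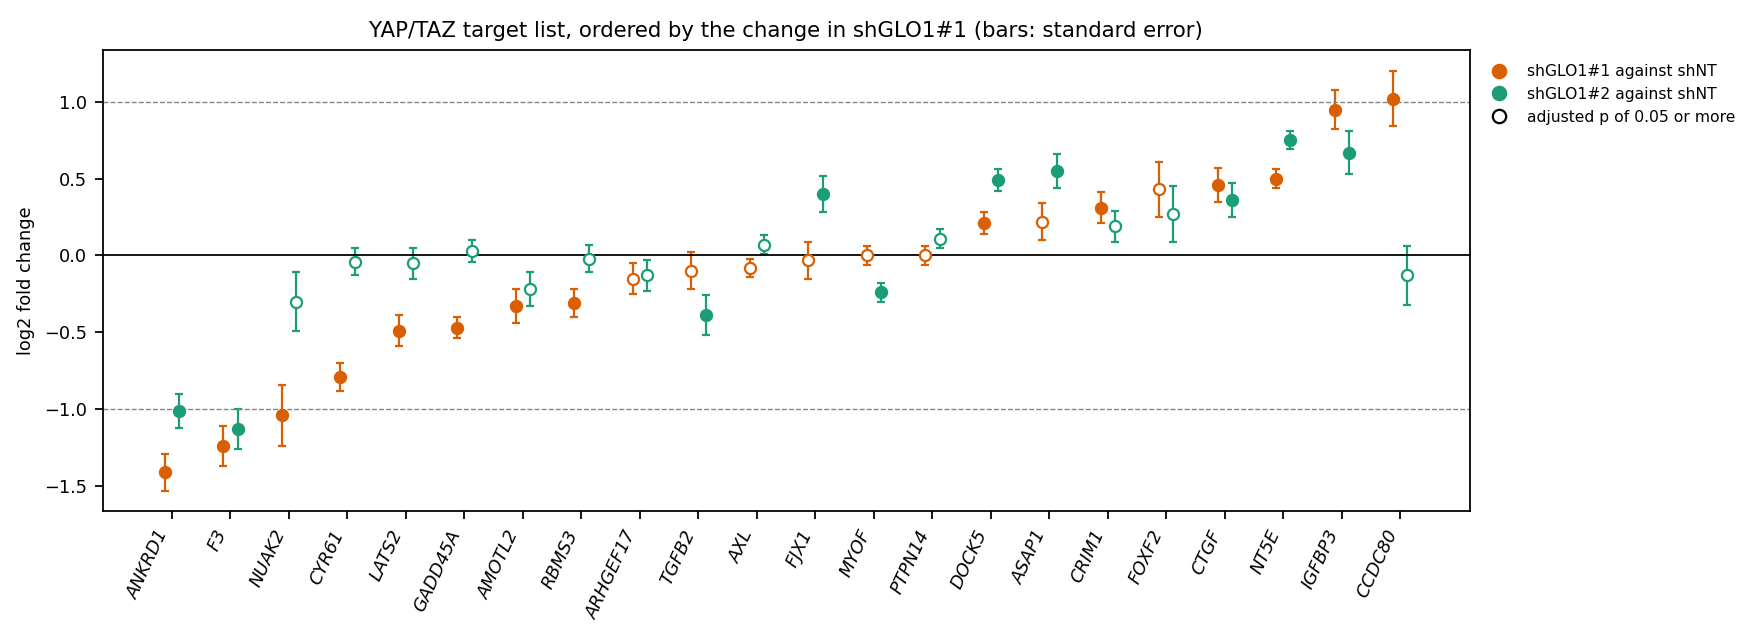
Log2 fold change (vertical axis) of the 22 YAP/TAZ targets in each clone against shNT, ordered by the value in shGLO1#1, with bars for the standard error, open symbols for an adjusted p of 0.05 or more and dashed lines at the fold limit. The list spreads to both sides of 0, from ANKRD1 at -1.41 to CCDC80 at 1.02 in shGLO1#1.

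Of 27 further regulators of the pathway, 24 were tested. VGLL1 and VGLL2, TEAD cofactors, had no count in any library, which allows up to 3 counts in each, and AMOT summed to at most 15 counts in a condition. Among the 24, 6 rose and 11 fell in shGLO1#1 (all genes: 22.6% and 23.1%) and 4 rose and 8 fell in shGLO1#2 (all genes: 18.3% and 19.8%), with a median of -0.12 on the log2 scale in each. Those lower in both clones were 7 (29.2%, beside 9.22% of all genes), and those higher in both were 3 (12.5%, beside 9.32%). Since the comparisons share their shNT libraries, these shares are a description.

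WWC1, also known as KIBRA, is an upstream scaffold that helps activate LATS. It was at 132, 117 and 116 CPM in shNT cells, 55.9, 65.7 and 63.5 in shGLO1#1 and 53.8, 63.2 and 57.3 in shGLO1#2, with no clone library near the control. The log2 fold changes were -0.98 for shGLO1#1 (SE 0.08, adjusted p = 5.28e-07, edgeR) and -1.06 in shGLO1#2 (SE 0.08, adjusted p = 3.91e-07, edgeR). MAP4K4, a kinase that can phosphorylate LATS in parallel to MST1 and MST2, went the other way. It was at 181, 204 and 214 CPM in shNT cells, 417, 420.1 and 381 in shGLO1#1 and 238, 238 and 239 in shGLO1#2. It rose in shGLO1#1 (1.02, SE 0.06, adjusted p = 6.15e-08, edgeR) and less in shGLO1#2 (0.25, SE 0.06, adjusted p = 0.00626, edgeR), and the clones differed by -0.77 (adjusted p = 5.34e-07, edgeR). Its shGLO1#1 value came inside the fold limit without shNT replicate 1 (0.96) or shGLO1#1 replicate 2 (1.00). WTIP, an Ajuba-family LIM protein that inhibits LATS, was at 7.59, 8.02 and 4.87 CPM in shNT cells, 3.33, 3.64 and 4.33 in shGLO1#1 and 2.31, 2.29 and 2.48 in shGLO1#2. It fell in shGLO1#1 (-0.84, SE 0.19, adjusted p = 0.00282, edgeR) and in shGLO1#2 (-1.52, SE 0.21, adjusted p = 6.14e-05, edgeR). The clones differed by -0.68 (adjusted p = 0.0217, edgeR), a call that ended without shGLO1#1 replicate 3 (-0.56, adjusted p = 0.0832) or shGLO1#2 replicate 2 (-0.65, adjusted p = 0.0624, both edgeR).

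The other regulators lower in both clones, named after their values were seen, took several places in the pathway. WWC2, the paralog of WWC1, had log2 fold changes of -0.61 in shGLO1#1 and -0.47 in shGLO1#2, and STK3, which encodes MST2, had -0.32 and -0.44. TAOK3, a kinase of the family that activates MST, had -0.21 and -0.19. TEAD3 had -0.33 and -0.61, and TP53BP2, which binds p53 and YAP, had -0.32 and -0.34. AMOTL1 (0.26 and 0.33) and TAOK1 (0.17 and 0.18) were higher in both, together with MAP4K4. In shGLO1#1 the STK3 call ended without shNT replicate 1 (-0.23, adjusted p = 0.0616) or shGLO1#1 replicate 1 (-0.28, adjusted p = 0.0530, both edgeR). The TEAD3 call in shGLO1#1 ended without shNT replicate 1 (-0.18, adjusted p = 0.204), shNT replicate 2 (-0.36, adjusted p = 0.0564), shGLO1#1 replicate 1 (-0.27, adjusted p = 0.141), shGLO1#1 replicate 3 (-0.32, adjusted p = 0.0876) or shGLO1#2 replicate 2 (-0.32, adjusted p = 0.0515), and under upper-quartile scaling (-0.29, adjusted p = 0.0618, all edgeR). TAOK1 lost its shGLO1#1 call without shNT replicate 1 (0.15, adjusted p = 0.0795), shNT replicate 2 (0.13, adjusted p = 0.116), shGLO1#1 replicate 1 (0.13, adjusted p = 0.122) or shGLO1#1 replicate 3 (0.17, adjusted p = 0.0551, all edgeR). It lost its shGLO1#2 call without shNT replicate 1 (0.17, adjusted p = 0.0651) or shNT replicate 2 (0.15, adjusted p = 0.0901, both edgeR). TAOK3 lost its shGLO1#2 call without shGLO1#2 replicate 2 (-0.15, adjusted p = 0.0699, edgeR) and under upper-quartile scaling (-0.14, adjusted p = 0.0567, edgeR).

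**Figure D5:**
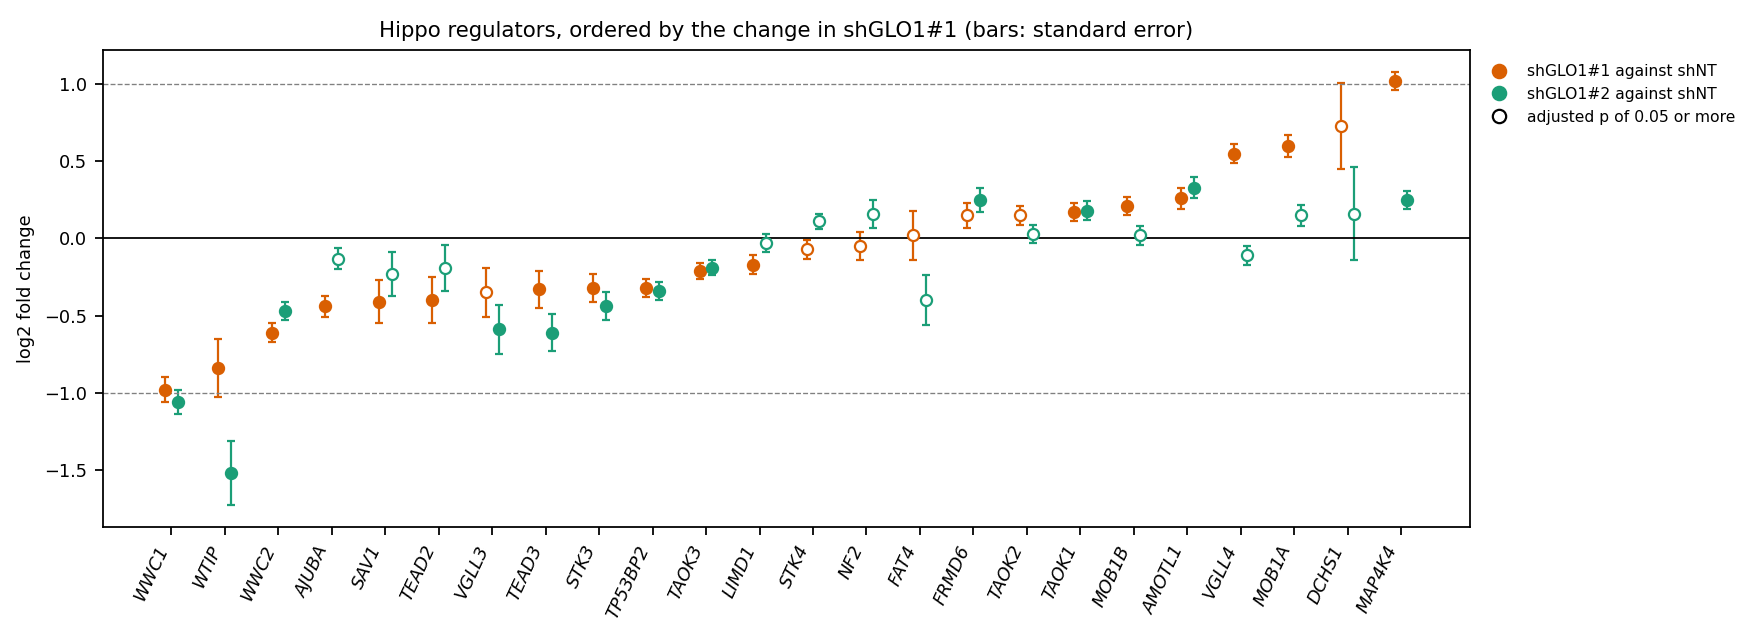
Log2 fold change (vertical axis) of 24 Hippo regulators in each clone against shNT, ordered by the value in shGLO1#1, with bars for the standard error, open symbols for an adjusted p of 0.05 or more and dashed lines at the fold limit. WWC1 and WTIP lie lowest in both clones, and MAP4K4 is at 1.02 in shGLO1#1 and 0.25 in shGLO1#2.

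HSP90, a chaperone that stabilizes many kinases, LATS1 among them, was read last. HSP90AA1 was at 2476, 2729.9 and 2500.0 CPM in shNT cells, 2075, 2106 and 1952 in shGLO1#1 and 3019, 3531 and 2962 in shGLO1#2, so the clones lay on opposite sides of the control with no overlap. It fell in shGLO1#1 (log2 fold change -0.33, adjusted p = 0.00137, edgeR) and rose in shGLO1#2 (0.30, adjusted p = 0.00286, edgeR), while 3.77% of all genes changed in opposite directions. HSP90AB1 was at 3057 ± 46.2 CPM in shNT cells, 2472 ± 52.4 in shGLO1#1 and 2480.0 ± 129 in shGLO1#2 (SD, n = 3), and fell in both (-0.31, adjusted p = 0.000200, and -0.30, adjusted p = 0.000276, edgeR). Both genes have processed pseudogene copies that may share reads, so their levels are uncertain.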

How the data were processed

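The authors prepared libraries from total RNA of MDA-MB-231 cells with the TruSeq RNA Sample Prep Kit, which leaves reads unstranded. Per the labels, reads were produced with bcl2fastq 2.17, aligned to hg19 with TopHat2 2.1.1 and counted with HTSeq, and the deposited values are raw counts per gene symbol of each of 9 libraries. For HTSeq, its version, annotation and strand setting were not given in the sources used here. Alignments on no gene (20.5 to 22.9% of those counted) were left out of library sizes. Within each condition, no libraries were copies of each other, and pairs across conditions were not checked for this.

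The tests ran on edgeR 4.0.16 under R 4.3.3. filterByExpr (minimum count 10, minimum total 15) kept 13704 of 26364 genes, scaled by TMM (factors 0.972 to 1.04). A quasi-likelihood model of all 9 libraries by condition gave 3 comparisons, with Benjamini-Hochberg adjustment across every tested gene. A gene "rose", "fell" or "changed" at an adjusted p under 0.05, and was past the fold limit when the absolute log2 fold change was also over 1. SE was obtained as the size of the log2 fold change over the square root of F. CPM per kb used exon lengths of the GENCODE v29 basic set, and promoters came from RefSeq (GRCh38.p14). The code was tested on simulated data. Alternatives were other scalings, DESeq2 1.42.0, other filters, the replicate block, only the groups compared, and each library left out.

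Deviations of same-numbered libraries from their condition means correlated at 0.210, 0.185 and 0.309 between shNT and shGLO1#2, all over 0.1, the limit for taking the numbers as a pairing. The labels do not state one. The main model has no term for the number, and values with it as a block are given where they change the call of a member. For the regulators only the count of calls with the block is given. Between shNT and shGLO1#1 (-0.0339, 0.0558 and 0.250) and between the clones (0.197, 0.0691 and 0.341) not every correlation passed that limit.

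The members and lists were chosen with earlier results of these data known. Named genes were all members, other list genes past the fold limit in either clone, list genes with no count, and the 2 genes nearest to each member past that limit.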

Additional observations from a re-analysis of the deposited data

Results flagged for a closer look

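Of the members and of the targets, regulators and chaperones named in the report, those were singled out for which the response differed between the GLO1-depleted clones by edgeR's test of the difference itself, with the log2 difference given as shGLO1#2 minus shGLO1#1. Among the members, WWTR1 differed by -0.37, TEAD1 by 0.19, LATS2 by 0.45, CYR61 by 0.75 and ANKRD1 by 0.41. Of the other YAP/TAZ targets named, CCDC80 differed by -1.15, NT5E by 0.25, DOCK5 by 0.27 and NUAK2 by 0.74. Of the regulators named, MAP4K4 differed by -0.77 and WTIP by -0.68. The list is partial, since 12 of the 22 targets and 8 of the 24 regulators tested differed between the clones. Of all 13704 tested genes, 6369 did so, 22.8% higher and 23.7% lower in shGLO1#2. HSP90AA1 differed by 0.63, with the clones on opposite sides of shNT. Groups of 3 libraries were too small for a check of outlying libraries.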

How the results depend on the processing

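Each value was recomputed under 16 alternatives. Of 480 values for the members' fold changes, 434 kept their direction and their side of the threshold, 16 lost the call, 15 gained one and 15 changed sign. Another scaling moved the median of all genes by at most 0.051 on the log2 scale. Under DESeq2's size factors, upper-quartile scaling and DESeq2, 0 members lay past the fold limit in shGLO1#2 (leave-one-out range 0 to 1). With the replicate block, 6 members changed in shGLO1#2 and 14 regulators differed between the clones, where leaving out a library gave 5 to 9. The share of all genes called with the block was not taken, so these counts have no background. Between the other pairs of conditions some but not all correlations of same-numbered libraries passed the limit for a pairing. In shGLO1#1 against shNT the block passed TEAD1 (-0.15, adjusted p = 0.00963, edgeR) and LATS1 (0.18, adjusted p = 0.0308, edgeR).

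Upper-quartile scaling turned the sign of YAP1 in shGLO1#1 (0.01) and shGLO1#2 (0.00), and of LATS2 (0.00) and CYR61 (0.01) in shGLO1#2. A minimum mean of 1 CPM did so for LATS1 between the clones (0.00). Leaving out 1 library also turned small values, with ranges of -0.14 to 0.02 for LATS2, -0.13 to 0.04 for CYR61 and -0.37 to 0.02 for CCDC80 in shGLO1#2, and, between the clones, -0.02 to 0.22 for TEAD4, -0.03 to 0.04 for LATS1, -0.25 to 0.01 for CTGF and -0.02 to 0.24 for AMOTL2. The cause of these changes was not tested. Values of a few hundredths on the log2 scale are within the standard errors, and the depth does not show a direction for them.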
